A study of Mus musculus with 13 samples.

Results

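The genes described here are 37 mouse genes of glycolysis and of the transcriptional response to low oxygen, chosen by symbol. They comprise 15 glycolytic enzymes, 7 transporters and regulators of glycolytic flux, and 15 further targets of the hypoxia-inducible factors (HIFs) or proteins of oxygen sensing. A probe set annotated to 1 of these genes alone was found for 34 of them, among 19934 such genes on the array, and all 34 passed the filter on low values that left 15875 genes for testing. Gpi1, Eno1 and Gapdh had no probe set of their own in the annotation used and were not analysed here, so 12 of the 15 enzymes were measured.

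The study removed p120-catenin, the product of Ctnnd1 that binds and stabilises cadherins at cell junctions, from the squamous epithelium of the upper digestive tract of mice. Total RNA of epithelium lifted off with dispase was hybridised to Affymetrix arrays, 13 in all, 1 per sample. The labels give 4 groups: forestomach masses of L2-Cre mice with p120 flox/flox alleles (n = 3, animals 412, 426 and 510), forestomach of L2-Cre mice with p120 +/+ alleles (n = 3, animals 214, 216 and 217), esophagus of L2-Cre flox/flox mice (n = 4, animals 193, 307, 313 and 335), and esophagus of L2-Cre p120 +/+ mice (n = 3, again animals 214, 216 and 217). All mice had a mixed C57Bl/6 and 129 background and carried the Cre transgene, whose L2 promoter is known as one that is active in stratified squamous epithelium, and the labels give neither age nor sex. No flox/flox forestomach without a mass is among the samples, so the effects of genotype and of being a mass cannot be told apart. The p120 +/+ mice are called controls below, and values are log2 of the authors' normalised intensity, listed in order of animal number.

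Glycolysis splits glucose into pyruvate and yields ATP without oxygen, and lactate dehydrogenase then turns pyruvate into lactate so that the pathway can keep running. When oxygen is short, the HIF alpha subunits are no longer hydroxylated by the prolyl hydroxylases (the Egln proteins), escape destruction, pair with Arnt and switch on genes of glycolysis, lactate export, blood vessel growth and pH control. Several of these genes also respond to growth signals and to Myc in normal oxygen, and squamous epithelium has no vessels of its own, so its oxygen comes from the tissue beneath.

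HIF binds DNA at a short core, which was searched for as the letters ACGTG and GCGTG on both strands (CACGT and CACGC when read on the opposite strand), with overlapping matches counted separately. The search covered windows of 300 bases, 250 before and 50 after each transcript start in RefSeq (build GRCm38.p6). The table held 32 of the 34 measured members, and Ndrg1 and Plod2 were missing from it. At least 1 match occurred for 31 of these 32 members (96.9%), against 7761 of 12509 tested genes in the table (62.0%), and in 38 of 48 windows of members (79.2%) against 8951 of 15685 windows of tested genes (57.1%). Windows of members had a mean GC content of 62.3% and 20.6 CpG dinucleotides each, against 59.6% and 18.6 for windows of tested genes, and both motifs hold a CpG. Members also had more windows per gene (48 for 32, against 15685 for 12509), which gives more places for a match. The members were listed as glycolysis genes and HIF targets, so their higher share is no independent result. A match is a stretch of letters and not a shown binding site. Of the 11 members in the table that passed the test in the masses, 10 (90.9%) had a match, the exception being Tpi1. Every member in the table that did not pass had a match.

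The windows of 4 members are shown as examples of different outcomes in the masses. Pgk1 (an enzyme) and Slc16a3 (a transporter) were higher, Adm was lower, and Ldha had the most matches of any member window while its mean level differed by less than 0.01 between the forestomach groups. Capitals mark the matches, 2 in Pgk1, 2 in Slc16a3, 2 in Adm and 7 in Ldha, where a palindrome counts once on each strand. The windows lie at chrX:106186850-106187149 (plus strand), chr11:120948817-120949116 (plus), chr7:110627407-110627706 (plus) and chr7:46845554-46845853 (plus, the first of 2 annotated starts).
Pgk1: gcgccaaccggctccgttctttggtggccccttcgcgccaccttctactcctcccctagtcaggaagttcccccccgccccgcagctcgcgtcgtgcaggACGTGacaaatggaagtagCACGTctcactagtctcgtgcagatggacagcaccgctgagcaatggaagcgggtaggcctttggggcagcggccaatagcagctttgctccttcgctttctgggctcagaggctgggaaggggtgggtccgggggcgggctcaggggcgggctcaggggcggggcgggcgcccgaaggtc
Slc16a3: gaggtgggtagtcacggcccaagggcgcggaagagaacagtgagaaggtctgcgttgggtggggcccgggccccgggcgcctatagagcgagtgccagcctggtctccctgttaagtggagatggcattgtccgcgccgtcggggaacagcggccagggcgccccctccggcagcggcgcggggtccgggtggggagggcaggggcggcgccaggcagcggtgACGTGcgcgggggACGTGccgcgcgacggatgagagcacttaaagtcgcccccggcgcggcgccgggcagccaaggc
Adm: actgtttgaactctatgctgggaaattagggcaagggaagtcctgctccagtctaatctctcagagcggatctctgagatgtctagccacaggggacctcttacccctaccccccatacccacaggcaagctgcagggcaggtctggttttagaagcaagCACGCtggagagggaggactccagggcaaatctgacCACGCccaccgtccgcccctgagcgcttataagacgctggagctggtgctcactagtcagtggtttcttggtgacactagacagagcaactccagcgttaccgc
Ldha: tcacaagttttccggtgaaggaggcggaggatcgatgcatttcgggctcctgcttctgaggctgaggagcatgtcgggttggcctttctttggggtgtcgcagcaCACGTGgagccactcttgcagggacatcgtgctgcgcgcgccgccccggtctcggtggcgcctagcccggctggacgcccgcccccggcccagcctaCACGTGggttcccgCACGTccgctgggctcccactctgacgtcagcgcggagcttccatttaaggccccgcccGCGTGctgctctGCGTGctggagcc

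Before the members, the samples themselves were checked. Ctnnd1, the targeted gene, had 9.66, 9.91 and 9.51 in the masses, against 10.40, 10.14 and 10.23 in control forestomach, a change of -0.56 (SE 0.12, adjusted p 0.0145) by limma. In the esophagus it had 10.13, 9.95, 10.08 and 10.04 in flox/flox animals, against 10.21, 10.33 and 10.50 in controls. The esophageal change was -0.29 (SE 0.11, adjusted p 0.637), with no overlap between the groups, and whether its single probe set lies in the deleted part is not given in the sources used here. The labelled squamous tissue was checked by list means, which were 10.18 to 11.29 for 7 basal markers and 10.73 to 12.29 for 10 suprabasal ones over the 13 arrays. Not every marker was high: Krt5 was at 12.32 or above and Krt13 at 13.38 to 14.13, while Krt15 went down to 7.84, Ivl to 5.09, Krt16 to 5.19 and Krt6a to 4.80. The mass of animal 426 stood apart with a mean of 11.83 for 9 glandular stomach markers, against 5.32 to 5.90 on the other 12 arrays. Esophagus arrays of animals 307 and 335 (flox/flox) and 214 (control) stood apart with means of 7.96, 9.36 and 8.21 for 20 skeletal muscle markers, against 5.59 to 5.83 on the other 4 esophagus arrays. Correlations between arrays of a group over tested genes ran from 0.918 to 0.941 for the masses and from 0.986 to 0.992 for control forestomach, so the masses were the most variable group.

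In the forestomach masses, 5 glycolytic enzymes and the lactate exporter Slc16a3 were higher than in control forestomach, together with 3 HIF targets, while adrenomedullin, a pyruvate dehydrogenase kinase and the Myc antagonist Mxi1 were lower. Of 34 members, 9 rose and 3 fell at an adjusted p under 0.05 over all genes tested (limma, Benjamini-Hochberg). Over all 15875 genes 2.31% rose and 8.40% fell, so that calls among all genes leaned downwards and calls among members leaned upwards. The share of members that fell was near that of all genes. Under quantile normalisation 515 genes rose and 1104 fell in place of 366 and 1334, and the members stood at 10 risen and 3 fallen. The median log2 change was 0.32 over the members, with 26 above 0 and 8 below, against 0.01 over all genes. These are bulk samples, in which fewer cells of a type and less RNA per cell cannot be told apart.

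Markers of other cells and some squamous markers also differed between the forestomach groups. The mean of 12 neutrophil markers was 6.46 to 7.25 in the masses, against 5.20 to 5.60 in control forestomach. The mean of 11 macrophage markers was 6.58 to 7.49 in the masses, against 6.06 to 6.18 in control forestomach. The mean of 11 endothelial markers was 6.46 to 7.47 in the masses, against 5.63 to 6.29 in control forestomach, and that of 12 fibroblast markers was 6.77 to 8.43 in the masses, against 6.21 to 6.79 in control forestomach. The groups did not overlap for neutrophil, macrophage and endothelial markers, overlapped slightly for fibroblast markers, and overlapped for proliferation markers (7.58 to 8.83 in the masses, against 7.34 to 7.77 in control forestomach). The mean of the 10 suprabasal markers was 11.68 to 12.29 in the masses, against 10.73 to 11.13 in control forestomach, without overlap. Within that list Krt6a was at 8.69 to 12.14 in the masses, against 4.80 to 6.08 in control forestomach, and Krt16 at 11.35 to 13.43 in the masses, against 6.03 to 7.19 in control forestomach. Dsc2 was at 11.41 to 12.54 in the masses, against 8.28 to 8.83 in control forestomach. Krt4, Krt13, Lor and Sprr3 lay the other way, with Krt4 at 12.73 to 13.33 in the masses, against 13.62 to 13.65 in control forestomach. Tgm3, Sprr1a and Ivl overlapped between the groups, so only Krt6a, Krt16 and Dsc2 of this list were higher without overlap. Means of 20 skeletal muscle markers were 5.80 to 6.21 in the masses, against 5.75 to 5.90 in control forestomach. The part of these cells, and of the squamous markers' shift, in the members' changes was not tested.

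**Figure D1:**
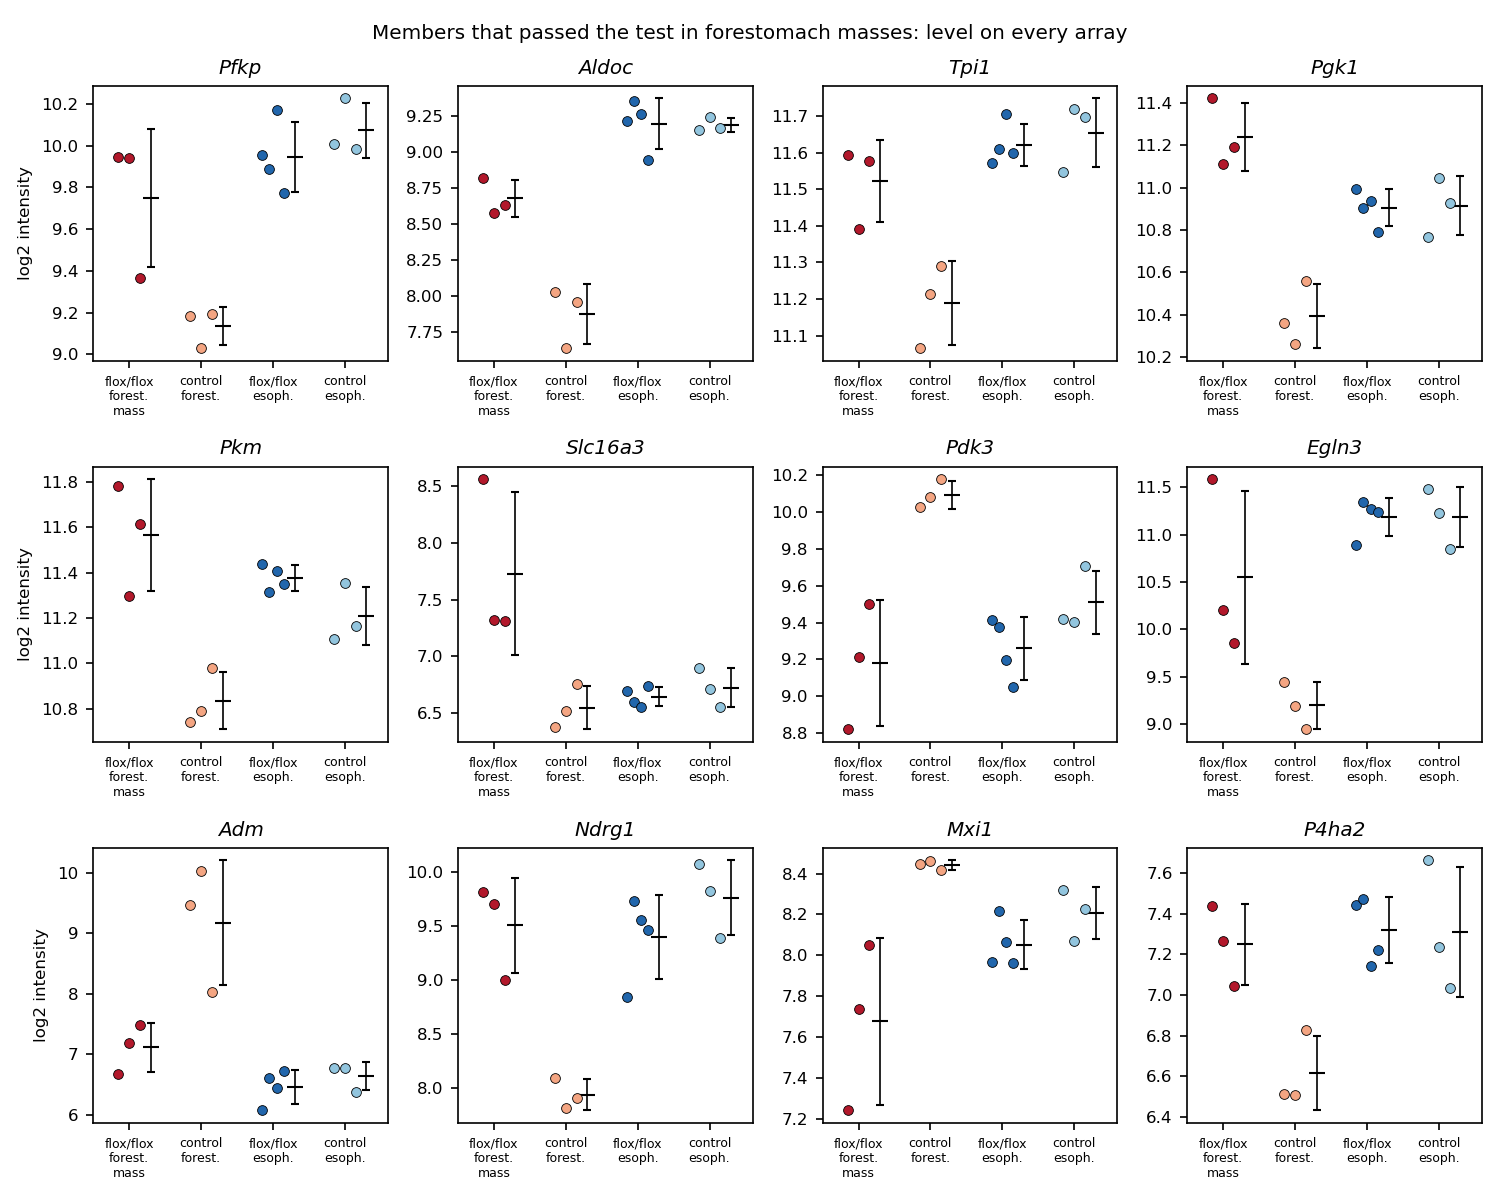
Log2 intensity (vertical axis) of the 12 members that passed the test in the forestomach masses, with 1 point per array in the flox/flox mass, control forestomach, flox/flox esophagus and control esophagus groups. The dash and bar beside each group give the mean and SD (n = 3, 3, 4 and 3), and in every panel the masses lie wholly to one side of control forestomach.

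Among the enzymes, each read by its probe set of highest mean, 5 of 12 rose and none fell in the masses, with a median change of 0.24. The furthest moved was Pgk1, phosphoglycerate kinase, the first step of the pathway that makes ATP. It had 11.42, 11.11 and 11.19 in the masses, against 10.36, 10.26 and 10.56 in control forestomach. All masses were above all controls, by 0.85 on average (SE 0.12, 1.80-fold, limma adjusted p 0.00214). Aldoc, an aldolase best known from brain that cleaves the sugar bisphosphate, had 8.82, 8.58 and 8.63 in the masses, against 8.03, 7.64 and 7.96 in control forestomach. Its change was 0.80 (SE 0.13, 1.74-fold, adjusted p 0.00390).

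Pkm, the pyruvate kinase that closes the pathway, had 11.78, 11.30 and 11.62 in the masses, against 10.74, 10.79 and 10.98 in control forestomach. The groups were apart, by 0.73 (SE 0.13, 1.66-fold, adjusted p 0.00523), and its second probe set gave 0.65. Its splice forms were not analysed here. Pfkp, the platelet-type phosphofructokinase at the committed step, had 9.94, 9.94 and 9.37 in the masses, against 9.18, 9.03 and 9.19 in control forestomach. The mass of animal 510 was closest to the controls, and the change was 0.62 (SE 0.16, 1.53-fold, adjusted p 0.0293).

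Tpi1, triose phosphate isomerase, had 11.60, 11.39 and 11.58 in the masses, against 11.07, 11.21 and 11.29 in control forestomach. This was the smallest change called among the members, 0.33 (SE 0.10, adjusted p 0.0476), and it passed the threshold in 8 of 25 alternative settings. Aldoa, the main aldolase of muscle and many other tissues, had 12.19, 12.03 and 12.20 in the masses, against 11.88, 11.88 and 11.95 in control forestomach, without overlap but at 0.24 (SE 0.10, adjusted p 0.148). Ldha, the lactate dehydrogenase subunit that favours lactate and a textbook HIF target, had 12.44, 12.10 and 12.46 in the masses, against 12.26, 12.28 and 12.45 in control forestomach. Its mean difference was below 0.01, with a 95% interval from -0.26 to 0.26, and the groups overlapped.

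The remaining enzymes did not pass. Hk1, Hk2, Pfkl, Pfkm and Pgam1 had changes of 0.05, 0.25, 0.18, -0.44 and 0.14, all overlapping between groups. Hk2 is the inducible hexokinase, and the mass of animal 412 was highest for it at 9.65, while the other masses had 9.05 and 9.19. The 2 probe sets of Hk1, the widely expressed hexokinase, disagreed. The brighter one gave the value above, and the dimmer one fell by 0.76 (SE 0.12, adjusted p 0.00317). Their mean passed as lower, at -0.36 (SE 0.10, limma adjusted p 0.0361). Since the probe sets disagreed, no direction is given for Hk1.

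Among the 7 transporters and regulators, 1 rose and 1 fell in the masses, with a median change of 0.08, which was -0.06 without the mass of animal 426 and -0.02 without control forestomach array 217. Slc16a3, the monocarboxylate carrier that exports lactate from glycolytic cells, had 8.56, 7.32 and 7.31 in the masses, against 6.38, 6.52 and 6.76 in control forestomach. The mass of animal 412 was highest by over 1 log2 unit, and the other masses were also above every control. The change was 1.18 (SE 0.27, 2.26-fold, adjusted p 0.0175). Pdk3, a kinase that switches off pyruvate dehydrogenase and so keeps pyruvate from entering the citric acid cycle, had 8.82, 9.21 and 9.50 in the masses, against 10.03, 10.08 and 10.18 in control forestomach. It fell by 0.92 (SE 0.16, 1.89-fold, adjusted p 0.00578).

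Pdk1, its relative and a classic HIF-1 target, had 8.15, 8.63 and 8.40 in the masses, against 8.80, 8.69 and 8.86 in control forestomach, at -0.39 (SE 0.12, adjusted p 0.0656). The groups did not overlap for Pdk1, nor for Pfkfb4, a bifunctional enzyme that sets the level of the activator of phosphofructokinase. Pfkfb4 had 9.53, 8.36 and 9.44 in the masses, against 9.83, 9.78 and 9.70 in control forestomach, at -0.66 (SE 0.25, adjusted p 0.130), with the mass of animal 426 lowest. Slc2a1, the glucose transporter GLUT1, had 11.27, 10.47 and 10.93 in the masses, against 10.33, 10.30 and 10.43 in control forestomach, and did not pass, at 0.54 (SE 0.23, adjusted p 0.164). Slc16a1, the widespread lactate and pyruvate carrier, and Pfkfb3 overlapped between groups, with changes of 0.15 and 0.08.

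Among the 15 other HIF targets and oxygen sensors, 3 rose and 2 fell in the masses, with a median change of 0.50 and 11 of 15 above 0. Ndrg1, a stress-induced protein of differentiating epithelium, had 9.81, 9.70 and 9.0 in the masses, against 8.09, 7.81 and 7.90 in control forestomach. All masses exceeded all controls, by 1.57 (SE 0.26, 2.97-fold, adjusted p 0.00426). Egln3, a prolyl hydroxylase that acts on HIF alpha and is itself induced by HIF, had 11.58, 10.21 and 9.86 in the masses, against 9.45, 9.20 and 8.95 in control forestomach. The mass of animal 412 was far above the others, and the change was 1.35 (SE 0.35, 2.55-fold, adjusted p 0.0315). P4ha2, a catalytic subunit of collagen prolyl hydroxylase, had 7.44, 7.26 and 7.04 in the masses, against 6.51, 6.51 and 6.83 in control forestomach, a change of 0.63 (SE 0.17, adjusted p 0.0359). With animal as a random block P4ha2 did not pass, at an adjusted p of 0.0582, and the other 11 calls were kept.

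The largest change of any member was that of Adm, the vasodilator peptide adrenomedullin and a well-known HIF target. It had 6.68, 7.19 and 7.48 in the masses, against 9.46, 10.03 and 8.03 in control forestomach. It fell by 2.06 (SE 0.40, 4.16-fold, adjusted p 0.00899), every mass lay below every control, and the controls themselves spread widely. With array weights the fall was 1.62 and did not pass, at an adjusted p of 0.214. Mxi1, an antagonist of Myc, had 7.24, 7.74 and 8.05 in the masses, against 8.45, 8.46 and 8.42 in control forestomach, and fell by 0.77 (SE 0.17, adjusted p 0.0146). The 3 masses were spread widely below tightly grouped controls.

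Several further members lay just short of the threshold. Ankrd37, an ankyrin repeat protein induced by HIF, had 7.33, 6.68 and 6.57 in the masses, against 5.98, 6.49 and 6.25 in control forestomach, at 0.62 (SE 0.18, adjusted p 0.0507). Ddit4, which restrains mTOR signalling under stress, had 7.90, 7.50 and 7.75 in the masses, against 7.26, 7.24 and 7.15 in control forestomach, at 0.50 (SE 0.15, adjusted p 0.0511). Both were non-overlapping and on the higher side.

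Vegfa, the main vessel growth factor, had 8.01, 8.31 and 8.07 in the masses, against 8.75, 8.41 and 8.50 in control forestomach, at -0.42 (SE 0.13, adjusted p 0.0560). Kdm3a, a histone demethylase, had 8.90, 8.80 and 8.80 in the masses, against 9.21, 9.07 and 9.23 in control forestomach, at -0.34 (SE 0.11, adjusted p 0.0644). Both were non-overlapping and on the lower side. Hif1a itself, the oxygen-regulated subunit, which is controlled mainly as a protein, had 10.87, 10.07 and 10.75 in the masses, against 9.94, 9.88 and 10.08 in control forestomach, at 0.60 (SE 0.22, adjusted p 0.106).

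The mass of animal 426 had the lowest Hif1a among the masses, within the range of the controls. Without that array, which carried the glandular stomach markers, Hif1a rose by 0.85 (adjusted p 0.0168), and Ankrd37, Ddit4, Pdk1 and Vegfa also passed. P4ha2 and Pfkp were then lost, and the count stood at 10 risen and 5 fallen. Calls over all genes in that fit are not given here, so a gain particular to the members cannot be read from this count. Among members that did not pass, that array was also highest for Car9, the cell-surface carbonic anhydrase, which had 5.53, 6.91 and 5.47 in the masses, against 5.71, 5.15 and 5.47 in control forestomach. It was highest too for Plod2, a collagen lysyl hydroxylase, which had 7.09, 7.88 and 5.96 in the masses, against 6.19, 5.29 and 5.92 in control forestomach. Egln1, the main oxygen-sensing hydroxylase, P4ha1 and Bnip3, a mitophagy receptor, had differences of 0.34, 0.34 and 0.31 and did not pass. The second probe set of Bnip3 gave -0.04, so no direction is given for it. P4ha1 had 7.92, 8.21 and 7.74 in the masses, against 7.46, 7.55 and 7.84 in control forestomach. The mass of animal 426 was again highest for P4ha1, and among the masses it was also highest for Vegfa and Pdk1.

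**Figure D2:**
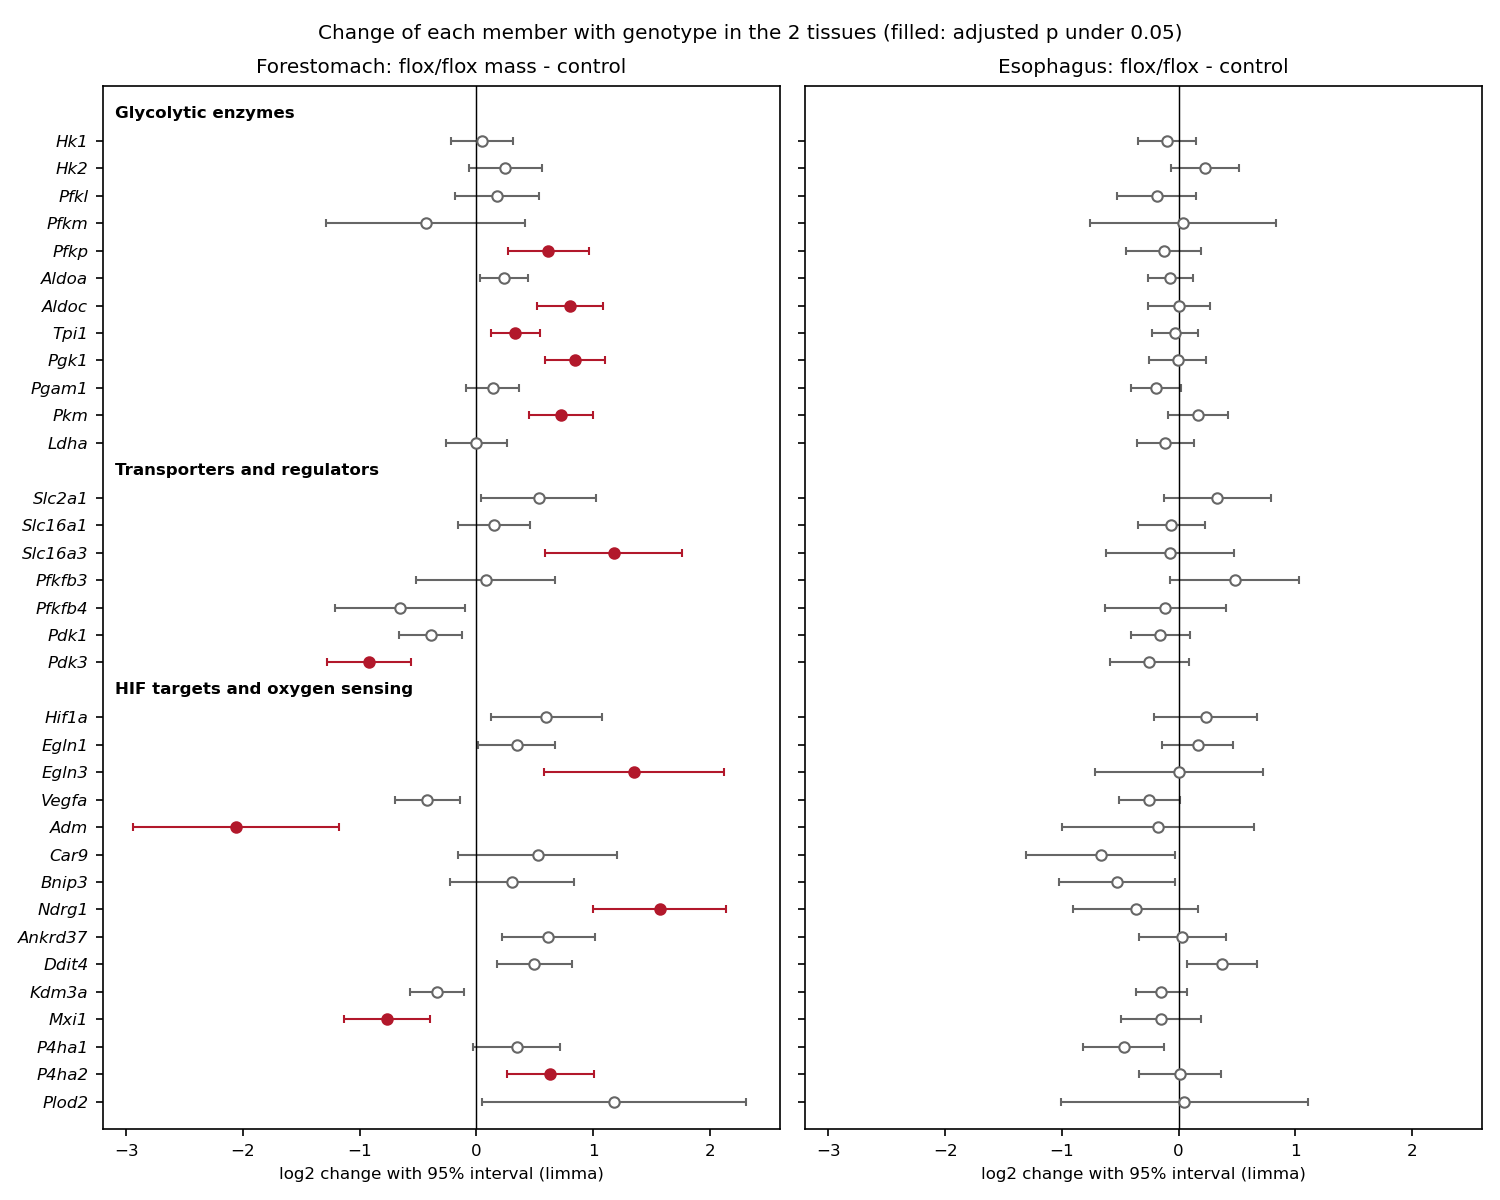
Log2 change with its 95% interval (limma) for each of the 34 members, grouped by role, in forestomach masses minus control forestomach (left) and in flox/flox minus control esophagus (right). Filled red points have an adjusted p under 0.05: 12 members on the left, 9 to the right of 0 and 3 to the left of it, and none on the right.

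In the esophagus of the flox/flox mice no member passed the test (0 of 34), where 2 of all genes tested (0.0126%) did. At an unadjusted p under 0.05 there were 4 members, against 6.98% of all genes. These 4 were P4ha1, Ddit4, Bnip3 and Car9. The median change was -0.07 over the members and 0.01 over all genes.

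P4ha1, the other collagen hydroxylase subunit measured, had 8.07, 8.25, 7.94 and 7.97 in flox/flox esophagus, against 8.86, 8.33 and 8.39 in control esophagus, at -0.47 (SE 0.16, adjusted p 0.583). Bnip3 had 8.40, 8.14, 7.82 and 8.46 in flox/flox esophagus, against 8.56, 9.13 and 8.51 in control esophagus, at -0.53 (SE 0.23, adjusted p 0.696). Car9 had 5.36, 5.19, 5.30 and 5.40 in flox/flox esophagus, against 5.77, 6.26 and 5.90 in control esophagus, at -0.67 (SE 0.29, adjusted p 0.702). These 3 genes and Pgam1, the phosphoglycerate mutase, were lower without overlap, 4 of 34, where 6.10% of all genes were.

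Hk2 was the only member higher without overlap, where 4.18% of all genes were. It had 9.26, 9.44, 9.24 and 9.56 in flox/flox esophagus, against 9.17, 9.13 and 9.13 in control esophagus, at 0.23 (SE 0.13, adjusted p 0.808). Within each group the arrays with high muscle markers (animals 307, 335 and 214) were highest for Hk2. Ddit4 had 7.69, 7.81, 7.41 and 7.63 in flox/flox esophagus, against 7.54, 7.08 and 7.16 in control esophagus, overlapping between groups, at 0.37 (SE 0.14, adjusted p 0.607). Pgam1 had 9.97, 10.01, 9.92 and 9.84 in flox/flox esophagus, against 10.04, 10.23 and 10.11 in control esophagus, at -0.19 (SE 0.10, adjusted p 0.760). Vegfa had 7.85, 7.98, 7.90 and 7.79 in flox/flox esophagus, against 8.25, 8.23 and 7.92 in control esophagus, also overlapping, at -0.25 (SE 0.12, adjusted p 0.730).

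None of the enzymes that rose in the masses passed in the esophagus. Their esophageal changes were -0.01 for Pgk1 (95% interval -0.25 to 0.23), 0.01 for Aldoc (-0.26 to 0.27), -0.03 for Tpi1 (-0.23 to 0.16), -0.13 for Pfkp (-0.45 to 0.20) and 0.17 for Pkm (-0.09 to 0.43). Slc16a3, Egln3, Ndrg1 and Adm had esophageal changes of -0.08, 0.00, -0.37 and -0.18.

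A few members were high on the esophagus arrays that held muscle and matrix markers. Pfkm, the muscle-type phosphofructokinase, had 7.61, 8.34, 7.62 and 9.40 in flox/flox esophagus, against 8.63, 8.09 and 7.88 in control esophagus, and was highest in each group on the arrays with high muscle markers (307, 335 and 214). Plod2 had 6.15, 6.99, 6.09 and 7.42 in flox/flox esophagus, against 7.45, 6.08 and 6.31 in control esophagus, with the same arrays highest. Pfkfb3 had 6.91, 7.37, 6.97 and 7.87 in flox/flox esophagus, against 7.27, 6.73 and 6.39 in control esophagus, again with these arrays highest in each group. Hk2, whose values are given above, was likewise highest on these arrays in each group. The mean of 12 fibroblast markers was 8.54, 9.11 and 9.94 on these 3 arrays, against 6.02 to 6.27 on the other 4 esophagus arrays. The mean of 11 endothelial markers was 6.77, 7.30 and 7.15 on these 3 arrays, against 5.31 to 5.62 on the other 4, and that of 11 macrophage markers was 6.84, 7.66 and 7.89, against 5.58 to 6.66. The part of muscle, matrix, endothelial and macrophage RNA in these values was not tested, and without the 3 arrays there were still 0 members called.

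**Figure D3:**
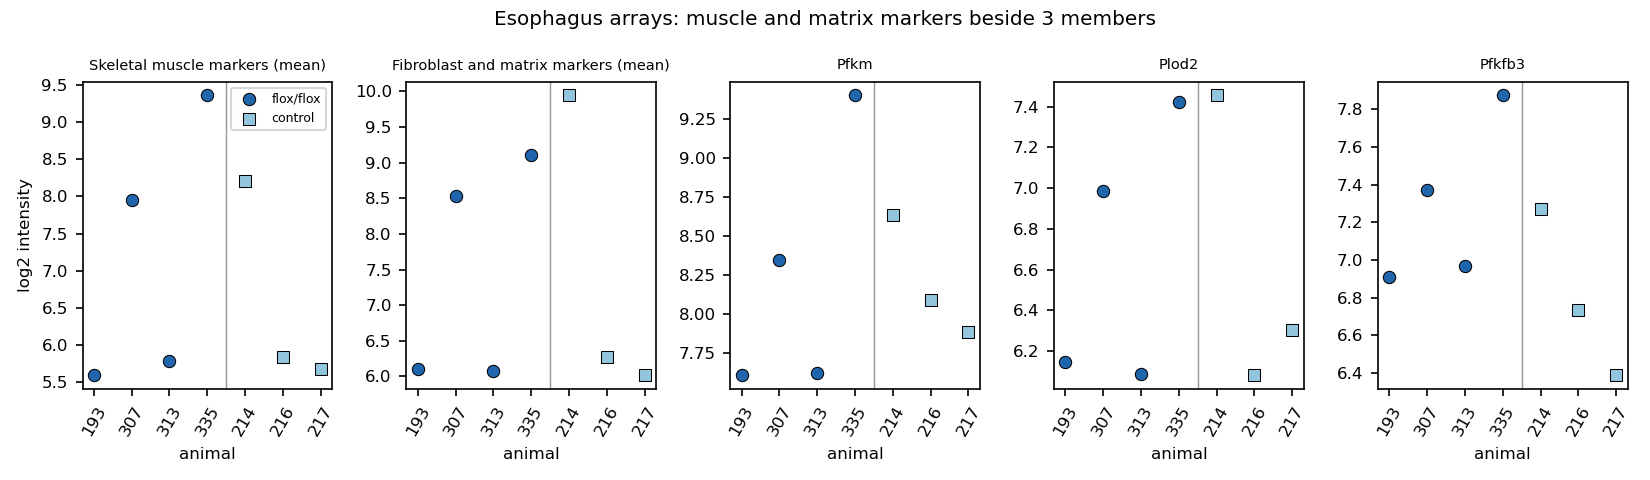
Log2 intensity on the 7 esophagus arrays by animal (flox/flox circles left of the line, control squares right of it) for the mean of 20 skeletal muscle markers, the mean of 12 fibroblast and matrix markers, and the members Pfkm, Plod2 and Pfkfb3. Animals 307 and 335 among flox/flox and 214 among controls are highest in each panel within their group.

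The difference of the forestomach and esophagus changes was then tested itself, since a call in 1 tissue and not in the other shows no difference. No member passed (0 of 34), while 22 of all genes (0.139%) did. At an unadjusted p under 0.05 there were 18 members, against 10.5% of all genes. The forestomach change exceeded the esophageal one by 1.94 for Ndrg1 (SE 0.36, adjusted p 0.0571) and by 0.85 for Pgk1 (SE 0.16, adjusted p 0.0588). With animal as a random block these 2 passed, at adjusted p values of 0.0216 and 0.0255, and they also passed under 4 other settings that kept all arrays. Next came Aldoc at 0.80 (SE 0.18, adjusted p 0.101), P4ha1 at 0.82 (SE 0.23, adjusted p 0.210), Pfkp at 0.74 (SE 0.22, adjusted p 0.217) and Slc16a3 at 1.25 (SE 0.37, adjusted p 0.220). Adm, the furthest on the lower side, had -1.88 (SE 0.55, adjusted p 0.223).

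The 3 control animals each gave both tissues, so their forestomach could be set against their esophagus. Control forestomach had lower levels of 4 enzymes and 6 HIF targets and a higher level of Adm. Of 34 members, 1 was higher and 10 were lower in control forestomach, where 3.51% of all genes were higher and 3.16% lower. With animal as a random block the count was 21, 5 higher and 16 lower, and it held all 11. The shares of all genes given here are those of the fit without the block, so a gain particular to the members cannot be read from the count of 21. This comparison shares the 3 control forestomach arrays with that of the masses, so the pair of comparisons is not independent, and their values are given side by side below without a test of their likeness.

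Aldoc had 8.03, 7.64 and 7.96 in control forestomach, against 9.15, 9.24 and 9.17 in control esophagus, a change of -1.31 (SE 0.13, adjusted p 0.000138), where the masses had 0.80 against control forestomach. Ndrg1 had 8.09, 7.81 and 7.90 in control forestomach, against 10.07, 9.83 and 9.39 in control esophagus, at -1.83 (SE 0.26, adjusted p 0.00153), where the masses had 1.57. Egln3 had 9.45, 9.20 and 8.95 in control forestomach, against 11.48, 11.23 and 10.85 in control esophagus, at -1.99 (SE 0.35, adjusted p 0.00574), where the masses had 1.35. None of the 3 overlapped between the control tissues.

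The group means of Aldoc were 8.68 ± 0.13 in the masses (SD, n = 3), 7.87 ± 0.21 in control forestomach (n = 3), 9.19 ± 0.18 in flox/flox esophagus (n = 4) and 9.19 ± 0.05 in control esophagus (n = 3). Those of Ndrg1 were 9.51 ± 0.44 in the masses, 7.93 ± 0.14 in control forestomach, 9.40 ± 0.39 in flox/flox esophagus and 9.76 ± 0.34 in control esophagus. For both genes control forestomach was the lowest of the 4 groups. The mean of the 12 enzymes per array was 10.67, 10.46 and 10.46 in the masses, 10.16 to 10.31 in control forestomach, 10.57 to 10.64 in flox/flox esophagus and 10.61 to 10.68 in control esophagus.

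Pfkp, Pgk1 and Tpi1 were lower in control forestomach than in control esophagus by changes of -0.94 (SE 0.16, adjusted p 0.00426), -0.52 (SE 0.12, adjusted p 0.0216) and -0.47 (SE 0.10, adjusted p 0.0131). Pfkp had 9.18, 9.03 and 9.19 in control forestomach, against 10.01, 10.23 and 9.98 in control esophagus. Pgk1 had 10.36, 10.26 and 10.56 in control forestomach, against 10.77, 11.05 and 10.93 in control esophagus, and Tpi1 had 11.07, 11.21 and 11.29 in control forestomach, against 11.55, 11.72 and 11.70 in control esophagus. All of these enzymes were lower in forestomach without overlap. Among oxygen sensors, Egln1 had 8.77, 8.67 and 8.86 in control forestomach, against 9.60, 9.62 and 9.40 in control esophagus, at -0.77 (SE 0.15, adjusted p 0.00929). Ankrd37 had 5.98, 6.49 and 6.25 in control forestomach, against 7.32, 7.27 and 7.19 in control esophagus, at -1.02 (SE 0.18, adjusted p 0.00587).

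Both collagen hydroxylase subunits were lower in control forestomach. P4ha1 had 7.46, 7.55 and 7.84 in control forestomach, against 8.86, 8.33 and 8.39 in control esophagus, at -0.91 (SE 0.17, adjusted p 0.00715), and P4ha2 had 6.51, 6.51 and 6.83 in control forestomach, against 7.66, 7.23 and 7.03 in control esophagus, at -0.69 (SE 0.17, adjusted p 0.0326). Both were highest on control esophagus array 214, where fibroblast markers were at 9.94, against 6.02 and 6.27 on the other control esophagus arrays, and their part was not tested. Without that array P4ha2 was at -0.52 and did not pass (adjusted p 0.112), nor did it pass without control esophagus array 216 or control forestomach array 214 or 216 (adjusted p 0.0706, 0.112 and 0.129). Adm was the exception in direction, with 9.46, 10.03 and 8.03 in control forestomach, against 6.78, 6.77 and 6.38 in control esophagus, a change of 2.53 (SE 0.40, 5.78-fold, adjusted p 0.00320). It had 6.07, 6.61, 6.44 and 6.73 in flox/flox esophagus, so control forestomach was the only group above 8 on every array.

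Members that did not pass here included Aldoa at -0.34 (SE 0.10, adjusted p 0.0541) and Pgam1 at -0.33 (SE 0.10, adjusted p 0.0909) on the lower side. On the higher side were Pdk3 at 0.59 (SE 0.16, adjusted p 0.0550), Slc16a1 at 0.49 (SE 0.14, adjusted p 0.0621), Vegfa at 0.42 (SE 0.13, adjusted p 0.0754) and Pdk1 at 0.40 (SE 0.12, adjusted p 0.0781). Slc16a1 had 9.34, 9.37 and 9.65 in control forestomach, against 9.06, 8.93 and 8.89 in control esophagus. Pdk3 had 10.03, 10.08 and 10.18 in control forestomach, against 9.42, 9.40 and 9.71 in control esophagus, and Pdk1 had 8.80, 8.69 and 8.86 in control forestomach, against 8.29, 8.50 and 8.36 in control esophagus. Forestomach was higher on every array for these transporter and kinase genes. Vegfa had 8.75, 8.41 and 8.50 in control forestomach, against 8.25, 8.23 and 7.92 in control esophagus, again without overlap. Aldoa had 11.88, 11.88 and 11.95 in control forestomach, against 12.27, 12.28 and 12.18 in control esophagus, and Pgam1 had 9.74, 9.77 and 9.90 in control forestomach, against 10.04, 10.23 and 10.11 in control esophagus, both lower without overlap. All 6 passed with the animal block. Without the esophagus arrays of animals 214, 307 and 335, which held high muscle markers, the count was 6, 1 higher and 5 lower. That fit had fewer arrays, and calls over all genes in it are not given here. The cause of the lower count was not tested.

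**Figure D4:**
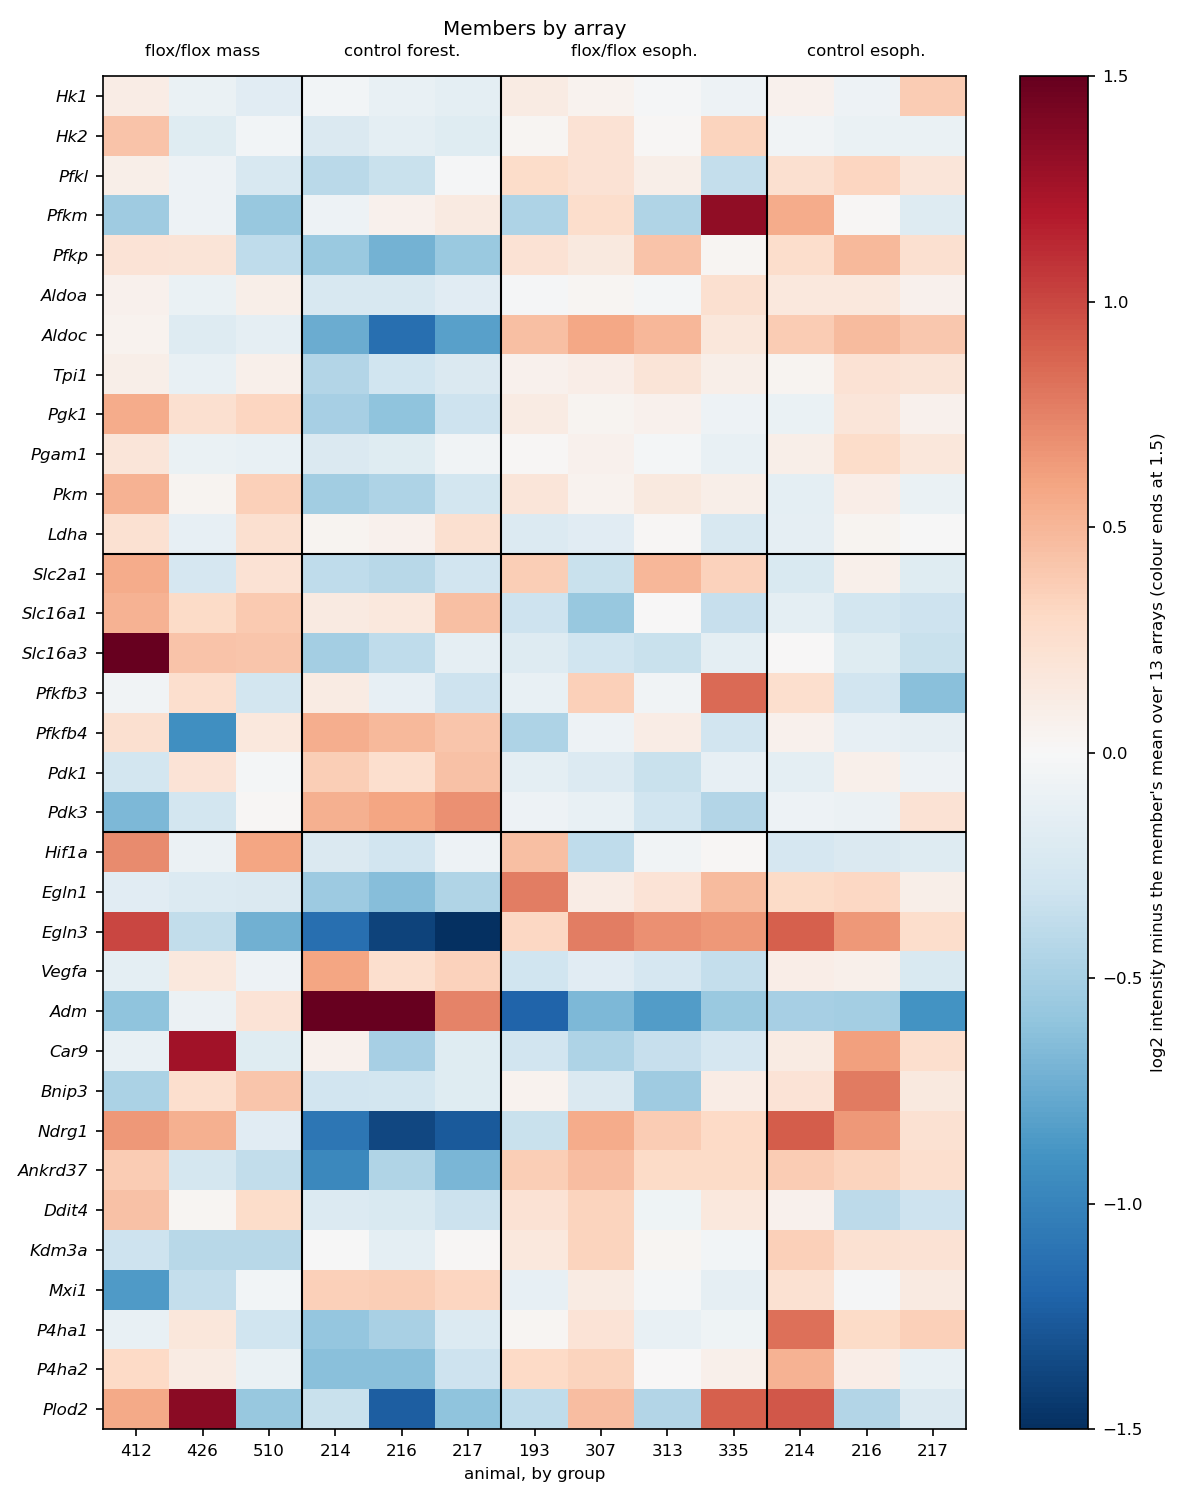
Log2 intensity of the 34 members (rows, in 3 blocks for enzymes, transporters and regulators, and HIF targets) on the 13 arrays (columns by animal), minus the member's own mean over the arrays, red above and blue below. Control forestomach is blue for Pfkp, Aldoc, Tpi1, Pgk1, Pkm, Egln3, Ndrg1 and Ankrd37 and red for Adm and Pdk3, and the mass of animal 412 is the deepest red in the Slc16a3 row.

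Genes of the same pathways outside the members were counted from lists made by pathway. Of 45 other genes of glycolysis and glucose use tested (52 listed), 1 rose and 3 fell in the masses, where 2.31% of all genes rose and 8.40% fell, so these shares were near those of all genes. The gene that rose was Gpd2, the mitochondrial glycerol phosphate dehydrogenase, at 0.47 (SE 0.11, adjusted p 0.0174). Pdk4, a starvation-induced pyruvate dehydrogenase kinase, had 5.26, 8.38 and 7.52 in the masses, against 10.27, 10.35 and 9.57 in control forestomach, and fell by 3.01 (SE 0.58, 8.06-fold, adjusted p 0.00828). The mass of animal 412 was lowest for Pdk4, as it was for Pdk3. Taldo1 and Rpia, of the pentose phosphate pathway, were at -0.63 (SE 0.15, adjusted p 0.0189) and -0.48 (SE 0.11, adjusted p 0.0196).

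Of 43 other HIF pathway genes tested (50 listed), 2 rose and 7 fell in the masses, beside the same 2.31% and 8.40% of all genes. Fam162a, a mitochondrial HIF target, had 11.18, 10.94 and 11.33 in the masses, against 9.90, 9.60 and 10.35 in control forestomach, at 1.20 (SE 0.21, adjusted p 0.00511). Igfbp3, which binds insulin-like growth factors, had 10.45, 8.33 and 8.51 in the masses, against 6.22, 6.21 and 6.36 in control forestomach, at 2.83 (SE 0.51, adjusted p 0.00617).

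Of those that fell, Cited2, which competes with HIF for its coactivator, had 8.89, 9.58 and 9.82 in the masses, against 10.63, 10.60 and 10.44 in control forestomach, at -1.12 (SE 0.22, adjusted p 0.00828), and Hif1an, the asparagine hydroxylase, was at -0.73 (SE 0.15, adjusted p 0.0101). Hmox1, haem oxygenase, was at -1.44 (SE 0.31, adjusted p 0.0129). The other 4 that fell were Rora, Kdm4b, Car12 and Kdm5b, with changes from -1.67 to -0.40. Neither list had a call in the esophagus or in the difference of the changes.

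Between the control tissues 2 of the other 45 glycolysis genes were higher in forestomach and 1 lower, near the 3.51% and 3.16% of all genes. Ldhb, the lactate dehydrogenase subunit of oxidative tissues, was at 1.20 (SE 0.31, adjusted p 0.0412), Slc2a8 at 0.43 (SE 0.12, adjusted p 0.0460), and Gbe1, the glycogen branching enzyme, at -0.72 (SE 0.17, adjusted p 0.0222). Of the other HIF pathway genes 1 was higher, Hmox1 at 1.14 (SE 0.31, adjusted p 0.0462), and 4 were lower. These 4 were Fam162a at -1.28 (SE 0.21, adjusted p 0.00341), Arnt, the partner of Hif1a, at -0.59 (SE 0.13, adjusted p 0.0147), Flt1 at -1.75 (SE 0.32, adjusted p 0.00628) and Bhlhe40 at -1.49 (SE 0.32, adjusted p 0.0149).

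In the masses 3 of the 12 calls, Aldoc, Ndrg1 and Pgk1, passed under all 25 alternative settings. With the esophagus arrays kept out of the fit these 3 were the sole calls, and without control forestomach array 214 or 216 the count was 6.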

How the data were processed

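The deposited values are linear intensities, which the authors normalised with GCRMA per the submitters' processing notes. The array values were read from the deposited series table, where the lowest value was 3.28, so the floor of 1 changed nothing. The median intensity per array was 65.3 to 72.4, and precision is set by how few arrays a group has. Of 34729 probe sets, 21633 carried 1 gene symbol in the platform annotation, 1306 several and 11790 none. Each gene was read by its probe set of highest mean, on the log2 scale, which was computed here from the authors' intensity, and genes above 5 on at least 3 arrays were kept. Another 4059 genes fell below that filter.

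One limma fit (version 3.58.1, R 4.3.3; lmFit and eBayes) over the 13 arrays in 4 groups, with 9 residual degrees of freedom, gave all contrasts. Adjusted p values are Benjamini-Hochberg over 15875 genes. The p-values rest on 1 spread per gene, pooled within the 4 groups and moderated over genes by eBayes. They do not allow for unequal spread between groups, where the median SD over genes was 0.248 in the masses and 0.115 in control forestomach. The main fit also treats both arrays of a control animal as independent. Control arrays with 1 number come from 1 animal, per the labels, and over genes their deviations correlated at 0.401 (214), 0.399 (216) and 0.315 (217), against -0.425 to 0.129 for different animals. The fit with animal as a random block (consensus correlation 0.396) is given where it changed a call. Values on each array are given for members called and for up to 6 next by p in each comparison. The members, gene lists and tests were chosen with earlier results of these data known. The marker list of red cells, with 2 of 5 genes on the array, differed little between arrays (means 5.61 to 6.27). These means lie not far above the filter at 5, so they say little about blood content. Alternatives covered the filter, probe set rule, scaling, offset, variance model, array weights, animal block, groups fitted and each array left out.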

Additional observations from a re-analysis of the deposited data

How the results depend on the processing

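Each count of members called was recomputed under up to 25 alternatives, of which 13 left out 1 array each, and no call of a member was reversed. The esophagus count was 0 in all of them. The forestomach mass count of 12 was 3 with only the 2 groups compared in the fit (Aldoc, Ndrg1 and Pgk1), 11 with the replicate block, 17 with the stricter filter (which added Ankrd37, Ddit4, Kdm3a, Pdk1 and Vegfa), and between 6 and 15 with single arrays left out, with 6 without control forestomach array 214 or 216. The count for control tissues, 11, became 22 with array weights, 21 with the replicate block, 17 with only the groups compared and 6 without the esophagus arrays of animals 214, 307 and 335, and ran from 8 to 15 with single arrays left out. The count for the difference of the changes, 0, became 2 (Ndrg1 and Pgk1) with the stricter filter, quantile normalisation, the offset of 16, the trended robust variance and the replicate block, and ran from 0 to 3 with single arrays left out: 3 without mass 510 (with Pfkp), 1 without mass 426 (Pgk1) and 1 without control forestomach 217 (Adm, lower). The cause of these shifts was not tested. How calls over all genes shifted under the same settings is not given in this section, so a shift particular to the members cannot be read from these counts. In the masses the replicate block lost P4ha2, and in the genotype comparisons it changed no further call.

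Of the calls in the masses, Tpi1 was kept under 8 of 25 alternatives, P4ha2 under 16, Pfkp under 18 and Egln3 under 20. Egln3 was lost without each control forestomach array in turn (adjusted p 0.0654, 0.0896 and 0.113). The median change of the transporters and regulators in the masses, 0.08, turned to -0.06 without mass 426 and -0.02 without control forestomach 217. Between control tissues P4ha2 and Pgk1 were kept under 20 of 25 and Tpi1 under 21. Scaling moved the median of all genes by under 0.1. The 3 or 4 arrays per group limit what changes of moderate size can pass.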
